A study of Mus musculus with 6 samples.

Results

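The Adamts, Adam and Mmp genes, zinc metalloproteases that cut matrix and cell-surface proteins, were compared together with the Timp genes, whose products inhibit them. Members were all probe sets of the array that carry exactly 1 gene symbol with the name of an Adamts or Adamts-like (Adamtsl), Adam, Mmp or Timp gene followed by its number. This gave 70 genes of 18193 named on the array, and 124 probe sets of 45037 tested. Of these genes 20 were Adamts or Adamtsl (36 probe sets), 28 Adam (46), 18 Mmp (29) and 4 Timp (13). A further 5 probe sets that carry a symbol of these families together with another gene symbol were not members. No signal level is left in the deposited values, so no filter on dim probe sets was possible and all 124 were tested.

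The RNA came from C57BL/6 mouse embryos of mixed sex at embryonic day 10.5, unmanipulated in both groups as far as the labels say. The midbrain floor plate, the ventral midline strip that secretes Sonic hedgehog, was dissected as 1 group, and the neighbouring ventral lateral region, taken without overlap, as the other. Each group had 3 samples, and each sample was RNA from tissue of 6 embryos combined, amplified from 5 ng and hybridised to its own Affymetrix array. The samples are called FP1 to FP3 and VL1 to VL3 by their replicate numbers. The p-values set the difference between the regions against the spread among samples of the same region, and treat the 6 samples as independent. The labels do not say whether pools of the 2 regions shared embryos, so that independence is not known.

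Values are on a log scale, read here as log2 and as rising with RNA amount, and each probe set is centred on its median over the 6 arrays. A value therefore says how samples differ and not how strongly a gene is expressed. With 6 arrays that median is the midpoint of the third and the fourth value, so where the groups do not overlap the innermost value of each group is the mirror image of the other. Known regional markers fitted the labels, but their lists were chosen with earlier results of these data known. They are therefore no independent check of the labels. Of 9 measured floor plate genes 8 had at least 1 probe set higher in floor plate, among them Corin, Foxa2 and Lmx1a, and all 9 ventral lateral genes, such as Gad1, Gata2 and Nkx2-2, had at least 1 lower. The mean of the floor plate markers was 0.97 to 1.07 in floor plate samples. It was -1.72, -0.92 and -2.11 in VL1, VL2 and VL3, so VL2 lay closest to the floor plate. In dissected tissue, fewer cells of a type and less RNA per cell cannot be told apart.

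These families differ in what they cut and where. Adamts enzymes are secreted and bind the matrix through thrombospondin repeats; several cleave hyalectans, the hyaluronan-binding proteoglycans such as versican, and others trim procollagens. Adams are membrane-anchored, and the active ones shed the outer parts of membrane proteins such as Notch and growth factor precursors. Mmps degrade collagens, laminins and other matrix proteins, and Timps bind the active site of Mmps and of some Adams and Adamts enzymes. In the embryonic nervous system, such proteases remodel the matrix through which cells and axons move.

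Of the 4 groups, most of the differences lay in the Adamts genes. Adamts5, Adamts9, Adamts12, Adamts3, Adamts16 and Adamts1 were higher in floor plate and Adamts4 was lower, while the other 13 Adamts and Adamtsl genes did not pass the test. Outside this group Mmp11 and Timp4 were higher in floor plate, and Adam11 and Adam19 lower. Over all members 11 of 124 probe sets were higher in floor plate and 3 lower (limma, Benjamini-Hochberg adjusted p under 0.05 over all 45037 probe sets), where over all probe sets 2.7% were higher and 2.01% lower. The 11 came from 8 genes and the 3 from 3 genes of the 70. Among all 18193 genes 4.58% had at least 1 probe set higher and none lower, and 3.24% the reverse, and 7.83% had a call in either direction (11 of 70 among the members), with 1.92 probe sets per gene on average against 1.77 among the members.

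The Adamts group had 9 of 36 probe sets higher and 1 lower, and its median was 0.12 (log2 fold change). The Adam group had 0 of 46 higher and 2 lower (median -0.02), with 7 at an unadjusted p under 0.05. The Mmp group had 1 of 29 higher and 0 lower (median -0.05), with 7 at an unadjusted p under 0.05. The Timp group had 1 of 13 higher and 0 lower (median 0.14), with 5 at an unadjusted p under 0.05. Over all probe sets tested the median was -0.0040, and 16.5% had an unadjusted p under 0.05. The shares called in the Adam group (4.35%) and the Mmp group (3.45%) lay near the 4.71% of all probe sets, and read against that background they are no result about those groups.

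**Figure D1:**
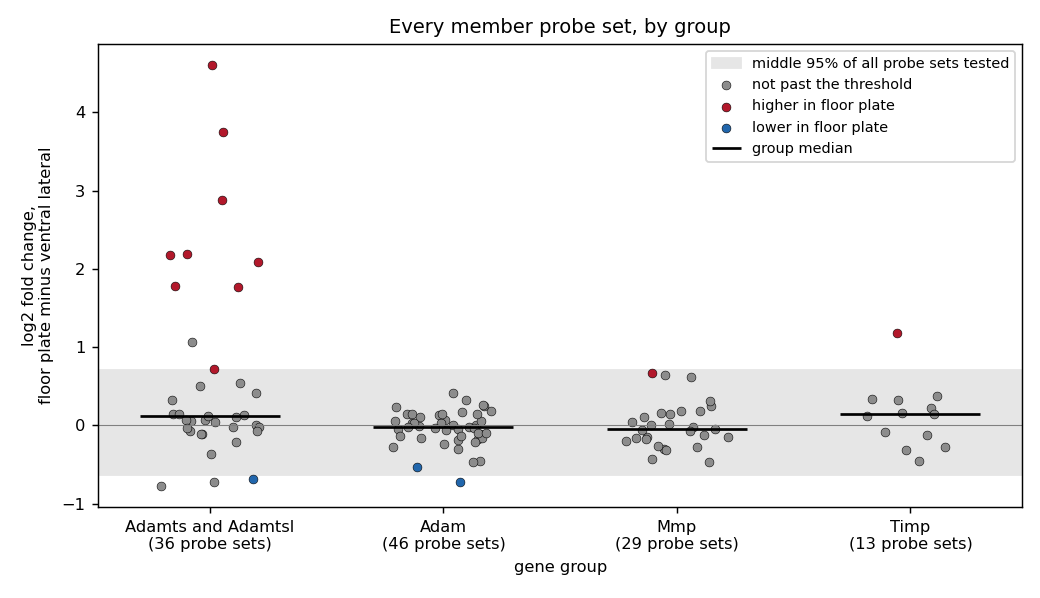
Log2 fold change (floor plate minus ventral lateral) of each of the 124 member probe sets by gene group; points are probe sets, black lines group medians, and the grey band holds the middle 95% of all 45037 probe sets (-0.64 to 0.71). The Adamts and Adamtsl group reaches 4.61, while the Adam probe sets lie between -0.73 and 0.42.

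Adamts5, a secreted protease known for cleaving aggrecan and versican, had the widest difference among the members. Its probe set 1422561_at was at 2.21, 2.03 and 2.19 in floor plate samples, against -2.86, -2.03 and -2.49 in ventral lateral samples. The groups were far apart and the floor plate samples lay close together. The log2 fold change was 4.61 (SE 0.20, adjusted p = 7.59e-05 in limma), or 24.3-fold, the fifth highest of all probe sets tested. A second probe set, 1456404_at, was at 1.61, 1.64 and 1.85 in floor plate samples and -2.65, -1.89 and -1.61 in ventral lateral samples, a log2 fold change of 3.75 (SE 0.25). The third, 1450658_at, gave 2.18 (SE 0.16), with 1.49, 0.91 and 1.04 in floor plate samples and -0.91, -1.14 and -1.03 in ventral lateral samples. The remaining one, 1456969_at, missed the threshold (1.06, SE 0.28, adjusted p = 0.0866), though its groups did not overlap. The probe sets of Adamts5 thus gave the same direction and sizes from 2.09-fold to 24.3-fold.

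Adamts9, a versican-cleaving protease whose product is also found inside cells, was higher on 2 of its 3 probe sets. Probe set 1437785_at was at 1.26, 1.03 and 1.27 in floor plate samples, against -1.82, -1.03 and -2.24 in ventral lateral samples, with replicate 2 the highest of the ventral lateral samples. Its log2 fold change was 2.88 (SE 0.28, adjusted p = 0.00152 in limma), or 7.37-fold. Probe set 1430352_at was 3.39-fold higher (log2 fold change 1.76, SE 0.25), at 1.32, 0.67 and 0.52 in floor plate samples and -1.18, -0.52 and -1.09 in ventral lateral samples. On 1431399_at the log2 fold change was 0.51 (adjusted p = 0.142), in the same direction but not past the threshold.

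Adamts12 belongs, with Adamts7, to a pair of proteases that cleave cartilage oligomeric matrix protein. Its probe set 1439827_at was at 1.05, 0.94 and 1.06 in floor plate samples, against -1.31, -0.94 and -1.26 in ventral lateral samples. Both groups were tight, and the log2 fold change was 2.19 (SE 0.12, adjusted p = 0.000204 in limma), or 4.56-fold. The other probe set, 1446666_at, gave 0.14 (95% interval -0.18 to 0.46), so the difference stood on 1 of 2 probe sets. Adamts7 gave 0.07 (adjusted p = 0.776).

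Adamts3, which removes the amino-terminal propeptide of fibrillar procollagen and activates the growth factor Vegfc, was at 0.91, 0.60 and 0.69 in floor plate samples, against -2.06, -0.60 and -1.41 in ventral lateral samples, on probe set 1441693_at. The ventral lateral samples were widely spread, and the log2 fold change was 2.09 (SE 0.32, adjusted p = 0.0112 in limma), or 4.25-fold. Without FP1 the adjusted p was 0.0596. Its other probe set, 1458143_at, gave -0.21 (95% interval -0.54 to 0.11).

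Adamts16, a protease with few known substrates, was at 1.16, 0.67 and 1.04 in floor plate samples, against -1.10, -0.73 and -0.67 in ventral lateral samples, on 1439604_at. The difference was 3.45-fold (log2 1.79, SE 0.17, adjusted p = 0.00137 in limma), and the groups were well separated. On 1441841_at it was 0.05 (95% interval -0.42 to 0.52), with overlapping groups. Its closest relative Adamts18 had 3 probe sets between -0.11 and 0.14, none past the threshold.

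Adamts1, another versican- and aggrecan-cleaving enzyme and the chromosomal neighbour of Adamts5 among protein-coding genes, also rose. Its single probe set was at 0.68, 0.14 and 0.37 in floor plate samples, against -0.41, -0.14 and -0.41 in ventral lateral samples (log2 fold change 0.72, SE 0.15, adjusted p = 0.044 in limma). The difference was close to the threshold, and the adjusted p was 0.102 without FP1, 0.112 without FP3, and 0.149, 0.0577 and 0.138 without VL1, VL2 and VL3. With array weights it was 0.061.

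Adamts4, the other well-known aggrecan-cleaving enzyme beside Adamts5, was lower in floor plate. Its probe set 1455965_at was at -0.35, -0.59 and -0.19 in floor plate samples, against 0.19, 0.31 and 0.41 in ventral lateral samples (log2 fold change -0.68, SE 0.13, adjusted p = 0.0255 in limma). Its second probe set, 1452595_at, gave -0.73 (adjusted p = 0.052). Both probe sets had non-overlapping groups in the same direction. The adjusted p of 1455965_at was 0.079 and 0.0604 without FP1 and FP2, and 0.0553, 0.0781 and 0.0924 without VL1, VL2 and VL3.

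The enzymes that share the hyalectan-cleaving type, namely Adamts1, Adamts4, Adamts5, Adamts8, Adamts9, Adamts15 and Adamts20, thus pointed both ways. Of their 13 probe sets 9 had every floor plate sample above every ventral lateral one and 3 the reverse, where 22.4% of all probe sets had groups that do not overlap in either direction. This class was formed from general knowledge after the values were seen, so no test was run on it. Of its 13 probe sets 4 belong to Adamts5 and 3 to Adamts9, and probe sets of 1 gene are not independent. The count therefore describes these probe sets and is no result about the class. Adamts20, which in mouse is needed for the spread of pigment cells, was at -0.10, -0.44 and -0.34 in floor plate samples and 0.10, 0.81 and 0.55 in ventral lateral samples but missed the threshold (-0.78, adjusted p = 0.0653). It passed, as lower in floor plate, in the fits with 1 value per gene (adjusted p = 0.0479 with the largest-variance probe set and 0.0388 with the mean), with array weights (0.0444) and without VL1 (0.024). Adamts8 was at 0.32 (adjusted p = 0.203) and Adamts15 at 0.01 (95% interval -0.37 to 0.38). Of the fibrillin-associated pair, Adamts6 had log2 fold changes of 0.54 and -0.07 and Adamts10 of 0.41 and -0.36, none past the threshold. The 5 Adamtsl genes, whose products lack the protease domain, lay between -0.08 and 0.15 on 8 probe sets, and in 0 of these did the groups separate.

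**Figure D2:**
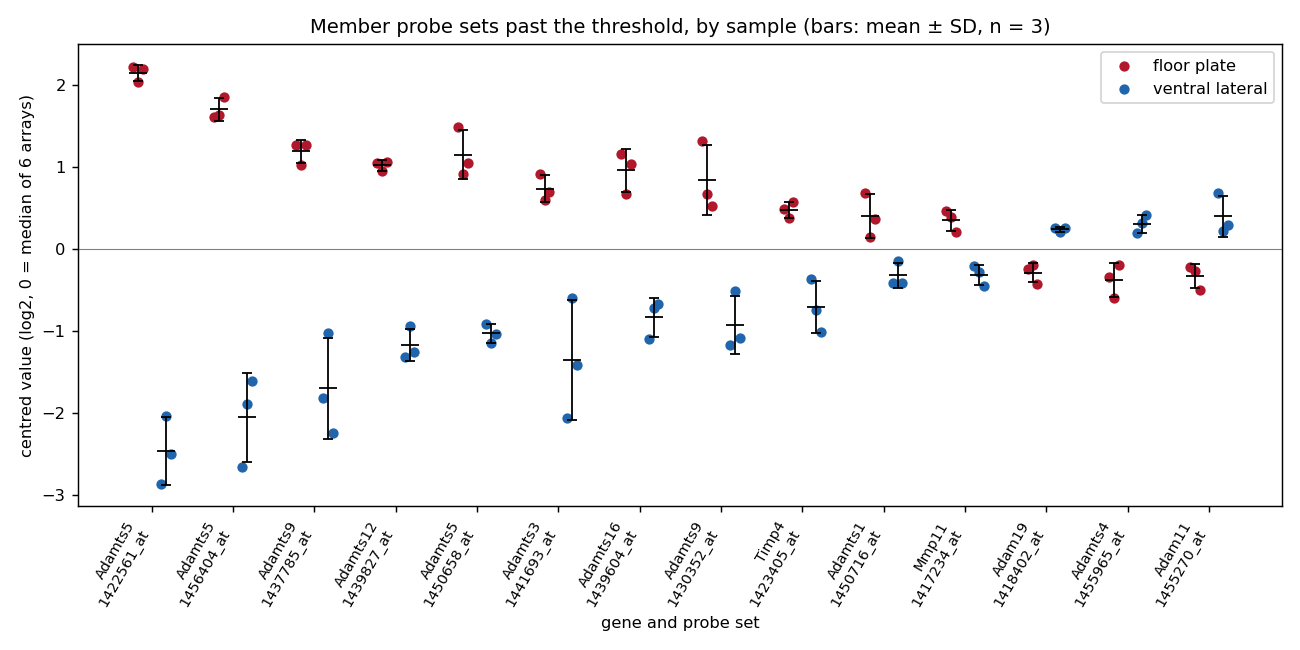
Centred log2 values of the 14 member probe sets past the threshold in each of the 6 samples; points are samples (floor plate left of ventral lateral in each pair), with mean and SD (n = 3). Adamts5 1422561_at has the widest gap, and no pair of groups overlaps.

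**Figure D3:**
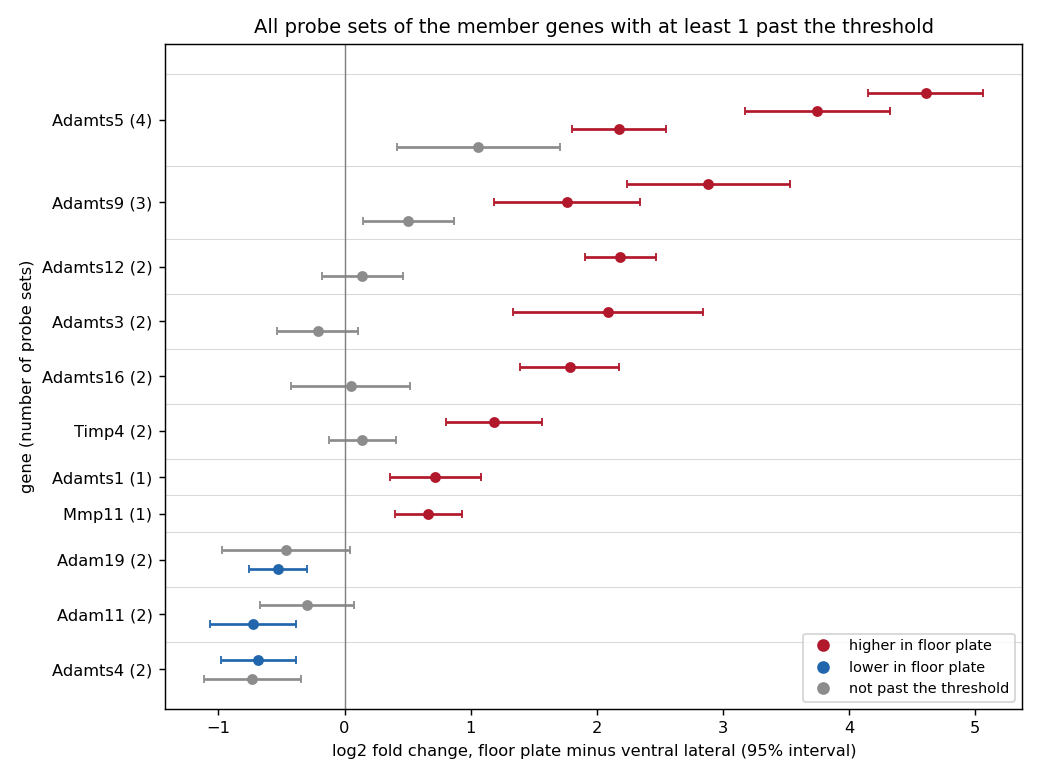
Log2 fold change (floor plate minus ventral lateral) with its 95% interval for every probe set of the 11 member genes with at least 1 past the threshold. Adamts12, Adamts3, Adamts16, Timp4, Adam11 and Adam19 each have 1 probe set past it and another whose interval includes 0.

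The proximal promoters of Adamts12, Adamts9, Adamts3 and Timp4 are shown because, of the 6 genes higher in floor plate that have a RefSeq window, these 4 had the widest differences. Each is the 250 bases before the annotated start in GRCm38.p6, written 5′ to 3′ on the strand of the gene, with capitals marking matches to the motifs named below. In the order given they lie at chr15:11064523-11064772 on the plus strand, and on the minus strand at chr6:92943535-92943784, chr5:89883335-89883584 and chr6:115252206-115252455.
Adamts12: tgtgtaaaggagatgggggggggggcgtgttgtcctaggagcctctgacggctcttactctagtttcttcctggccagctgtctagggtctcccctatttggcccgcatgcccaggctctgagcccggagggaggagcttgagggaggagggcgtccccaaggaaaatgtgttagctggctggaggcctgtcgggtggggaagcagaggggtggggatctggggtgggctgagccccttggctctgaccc
Adamts9: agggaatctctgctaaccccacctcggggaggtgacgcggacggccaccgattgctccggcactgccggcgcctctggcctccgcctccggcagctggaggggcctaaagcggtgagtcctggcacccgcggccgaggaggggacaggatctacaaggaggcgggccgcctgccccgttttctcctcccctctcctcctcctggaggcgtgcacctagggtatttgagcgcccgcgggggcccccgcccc
Adamts3: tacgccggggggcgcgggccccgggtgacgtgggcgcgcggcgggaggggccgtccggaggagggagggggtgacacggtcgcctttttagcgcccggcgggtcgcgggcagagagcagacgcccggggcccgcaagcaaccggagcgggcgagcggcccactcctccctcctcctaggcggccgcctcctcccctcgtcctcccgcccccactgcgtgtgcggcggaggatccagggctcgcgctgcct
Timp4: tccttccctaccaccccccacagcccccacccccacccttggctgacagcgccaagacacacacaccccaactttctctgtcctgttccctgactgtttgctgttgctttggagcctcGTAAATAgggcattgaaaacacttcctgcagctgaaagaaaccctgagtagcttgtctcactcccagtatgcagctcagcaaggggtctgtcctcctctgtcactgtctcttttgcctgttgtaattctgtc

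The windows of Adamts12, Adamts9 and Adamts3 were GC-rich (63.2%, 71.2% and 78.0% G or C), against 53.6% in Timp4 and a median of 52.4% over 32851 windows. Searched on both strands were TGTTTAC and TATTTAC, bound by forkhead factors such as Foxa2, TGGGTGGTC, bound by Gli factors, TAATTA, bound by many homeodomain factors, and the TATA element TATAAA. The Timp4 window held 1 match, to TATTTAC on the opposite strand, which begins 132 bases before the start. That motif occurs in 2.73% of all windows, TGTTTAC in 3.17%, TGGGTGGTC in 0.225%, TAATTA in 4.84% and TATAAA in 12.4%. None of these 5 was found in the windows of Adamts12, Adamts9, Adamts3 or Mmp11, while Adamts1 had 1 TATAAA beginning 32 bases before its start. Of the lower genes, Adam19 had 3 windows, 1 of them with a TGTTTAC. RefSeq windows were matched by symbol for 41 of the 70 member genes and for 7 of the 11 with a call, the other 4 being Adamts5, Adamts16, Adamts4 and Adam11. A match is a run of letters and not a measured binding site.

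Among the Adams, 2 genes were lower in floor plate and none higher, both by under 2-fold. Adam11, a catalytically inactive member found on neurons, was at -0.22, -0.27 and -0.50 in floor plate samples, against 0.68, 0.22 and 0.29 in ventral lateral samples on 1455270_at (log2 fold change -0.73, SE 0.15, adjusted p = 0.0347 in limma). Its other probe set, 1450248_at, gave -0.30 with overlapping groups. The adjusted p of 1455270_at was 0.08, 0.0788 and 0.109 without FP1, FP2 and FP3, and 0.0783 and 0.0775 without VL1 and VL3. Of 8 newborn neuron markers 2 were lower in floor plate, Stmn2 and Nefl, and the mean of these markers was -0.27 to -0.06 in floor plate samples and -0.04 to 0.36 in ventral lateral samples. Their part in the Adam11 difference was not tested.

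Adam19, a shedding enzyme that acts on neuregulins, was at -0.24, -0.20 and -0.43 in floor plate samples, against 0.26, 0.20 and 0.25 in ventral lateral samples on 1418402_at (log2 fold change -0.53, SE 0.10, adjusted p = 0.0257 in limma). The other probe set, 1418403_at, gave -0.47 with a wide interval (-0.97 to 0.04). The adjusted p of 1418402_at was 0.0645 and 0.078 without FP1 and FP3, and 0.09, 0.0735 and 0.0881 without VL1, VL2 and VL3.

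The sheddases of Notch and of many cytokines and growth factors, Adam10 and Adam17, did not pass. Adam10 had log2 fold changes of -0.06 to 0.24 on 4 probe sets and Adam17 of -0.02 to 0.14 on 3. For each of the 44 Adam probe sets without a call the 95% interval of the difference lay within a log2 of 1 on either side of 0. This holds for the probe set values only. No signal level is left to show whether a probe set detects its RNA, so a 2-fold difference in RNA is not excluded. For Adamts12, 1446666_at had an interval of -0.18 to 0.46 while 1439827_at gave 2.19. The other inactive neural Adams, Adam22 and Adam23, had 5 probe sets between -0.28 and 0.11. The 16 Adam genes outside the neural and the widely expressed active ones, many of them known from testis, had 18 probe sets between -0.21 and 0.42 and 0 calls.

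Of the Mmps only Mmp11 passed. Mmp11 (stromelysin-3), which unlike most Mmps is secreted already active, was at 0.46, 0.39 and 0.21 in floor plate samples, against -0.21, -0.29 and -0.45 in ventral lateral samples (log2 fold change 0.67, SE 0.11, adjusted p = 0.0166 in limma). The difference was 1.59-fold, and the adjusted p was 0.063 and 0.0564 without FP1 and FP2, and 0.0513 and 0.0621 without VL2 and VL3. The gelatinase gene Mmp2 had both probe sets in the same direction, at 0.62 and 0.64, with every floor plate sample above every ventral lateral one, but neither passed (adjusted p of 0.150 and 0.118). On 1416136_at Mmp2 was at 0.38, 0.13 and 0.25 in floor plate samples and -0.83, -0.15 and -0.13 in ventral lateral samples, so VL1 stood below the rest. Mmp9, the other gelatinase, was at -0.14 and 0.01. The activator of Mmp2 on the cell surface, Mmp14, had log2 fold changes of 0.04, 0.32 and -0.06, and the membrane-type genes Mmp16, Mmp17 and Mmp24 lay between -0.47 and 0.10. The collagenase genes Mmp1a, Mmp1b, Mmp8 and Mmp13 had 4 probe sets between -0.18 and 0.25.

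Of the inhibitors, Timp4 was higher in floor plate, and Timp1, Timp2 and Timp3 did not pass. Timp4 was at 0.49, 0.37 and 0.57 in floor plate samples, against -0.37, -0.74 and -1.01 in ventral lateral samples on 1423405_at (log2 fold change 1.18, SE 0.16, adjusted p = 0.00683 in limma), or 2.27-fold, with clear separation. Its other probe set, 1450974_at, gave 0.14 (95% interval -0.13 to 0.41). Timp2, which also serves in the activation of Mmp2 by Mmp14, had 5 of 6 probe sets above 0. On 3 of them the groups did not overlap, where 22.4% of all probe sets had groups that do not overlap in either direction. The probe sets of Timp2 measure 1 gene in the same samples, so their number adds no replicates. The highest of Timp2, 1433662_s_at, was at 0.10, 0.16 and 0.22 in floor plate samples and -0.32, -0.10 and -0.23 in ventral lateral samples (log2 fold change 0.38, adjusted p = 0.0861). Timp3, the matrix-bound inhibitor of Adam17 and of Adamts4 and Adamts5, had all 4 probe sets below 0, from -0.45 to -0.13. On 1449334_at it was at -0.08, -0.21 and -0.25 in floor plate samples and 0.39, 0.35 and 0.08 in ventral lateral samples (adjusted p = 0.0846). Timp1 was at 0.09, -0.28 and 0.13 in floor plate samples and -0.45, 0.13 and -0.09 in ventral lateral samples, with overlapping groups (log2 fold change 0.12, 95% interval -0.29 to 0.53).

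The samples of a region did not contribute alike. Over the 11 member probe sets that were higher, the mean value was 1.15, 0.85 and 0.98 in FP1, FP2 and FP3, against -1.35, -0.91 and -1.24 in VL1, VL2 and VL3. VL2, the one with the highest floor plate marker mean, was the highest of its region in 6 of the 11. Without that sample 9 member probe sets were higher and 2 lower. The higher count was 8 without FP1, 11 without FP2, 10 without FP3, 10 without VL1 and 9 without VL3. The lower count was 0 without FP1 or VL3 and 1 without FP2, FP3 or VL1. Each called probe set of Adamts5, Adamts9, Adamts12, Adamts16 and Timp4 passed in all 6 of these fits.

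Tissue around the neural tube also makes these proteases, so its markers were read in the same samples. Of 11 mesenchymal and meningeal markers Twist1 was higher in floor plate (log2 fold change 2.11, adjusted p = 0.00724 in limma), and the other 10, among them Col1a1, Col3a1, Foxc1 and Lum, did not pass. The list mean was -0.33, 0.44 and 0.006 in FP1, FP2 and FP3, and -0.53, 0.35 and -0.15 in VL1, VL2 and VL3. In both regions replicate 1 was thus the lowest and replicate 2 the highest. Of 9 endothelial markers Cldn5 was lower (-0.68) and none higher, with list means of -0.22 to 0.05 in floor plate samples and 0.01 to 0.16 in ventral lateral samples. Erythroid, macrophage, notochord and surface ectoderm markers had 0 calls among 6, 8, 3 and 5 measured genes. In centred values a marker near 0 shows no difference and not that it is absent, and the part of these cells in the protease differences was not tested.

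Partners of these enzymes were read from 8 lists with 52 measured genes, of which 9 had a probe set higher in floor plate and 2 lower, where over all genes 4.58% were higher and 3.24% lower. The lists were chosen with earlier results of these data known, so these counts describe the listed genes and are no result about the lists. The median log2 fold change of a list's probe sets lay between -0.02 (partners of Adam10 and Adam17) and 0.45 (proprotein convertases), against -0.0040 over all probe sets. Of the 8 convertase probe sets 5 belong to Pcsk5. The proprotein convertases, which cut off the propeptide that keeps Adamts and Adam enzymes inactive, had 3 of 4 genes higher and none lower. Pcsk5 was higher on 2 of 5 probe sets, the larger at 0.74, 0.37 and 0.77 in floor plate samples, against -0.53, -0.37 and -0.997 in ventral lateral samples (1451406_a_at, log2 fold change 1.26, adjusted p = 0.00886 in limma). Another probe set of Pcsk5, 1452475_at, gave -0.36 (adjusted p = 0.108). Furin gave 0.51 (adjusted p = 0.0201) and missed the threshold in each fit that left out 1 sample (0.0508 to 0.0809). Pcsk6 gave 0.76 (adjusted p = 0.0495) and missed it without FP1 or FP3 (0.156 and 0.148) and without VL1, VL2 or VL3 (0.0521, 0.14 and 0.141). Pcsk6 also missed it after quantile normalization (0.0526), with robust eBayes (0.0537) and with array weights (0.0517). Pcsk7 gave -0.05.

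Of the hyalectans and link proteins, substrates of the Adamts enzymes and their partners on hyaluronan, 1 of 8 genes was higher and 1 lower. Vcan, which encodes versican, was higher on 3 of its 8 probe sets. Its 1427257_at was at 0.71, 0.47 and 1.19 in floor plate samples, against -1.18, -0.47 and -0.61 in ventral lateral samples (log2 fold change 1.54, SE 0.24, adjusted p = 0.0105 in limma), or 2.90-fold. This probe set passed in all 6 fits without 1 sample, while 1421694_a_at of Vcan passed in 2 of them and 1427256_at in 3. The other 5 probe sets of Vcan did not pass with all 6 samples, and the mean of its 8 gave 0.67 (adjusted p = 0.0156 in limma). Ncan, encoding neurocan, the hyalectan of neural tissue, was lower on 2 of its 3 probe sets, with log2 fold changes of -1.10 and -0.92. The remaining one, 1423604_at, gave -0.73 and did not pass (adjusted p = 0.0856 in limma). On 1434679_at Ncan was at -0.68, -0.33 and -0.75 in floor plate samples and 0.85, 0.35 and 0.33 in ventral lateral samples. Its adjusted p was 0.0128, and 0.0618 and 0.0503 without FP1 and FP3. The other called probe set of Ncan, 1444020_at, missed the threshold without FP1 (0.0813), FP3 (0.0759), VL1 (0.0836) or VL2 (0.0636). Acan, Bcan and Hapln1 to Hapln4 had no probe set past the threshold.

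LGI proteins are secreted ligands of the inactive Adams Adam11, Adam22 and Adam23. Lgi1 was higher in floor plate on both of its probe sets, with log2 fold changes of 3.90 and 3.54 (adjusted p of 0.00172 and 0.00058 in limma). On 1435851_at Lgi1 was at 1.78, 1.62 and 1.55 in floor plate samples, against -3.25, -1.55 and -1.93 in ventral lateral samples. Lgi3 was higher on 1 of 3 probe sets (2.10, adjusted p = 0.0128) and missed the threshold without FP1 (0.0656), VL1 (0.0589) or VL3 (0.0543). Lgi2 and Lgi4 did not pass.

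In the remaining lists the genes with a call were Plat, Spock1, Bmp1 and Ltbp1, where 7.83% of all genes had a call in either direction. Plat, encoding tissue plasminogen activator, was 2.33-fold higher on 1415806_at, at 0.38, 0.54 and 0.64 in floor plate samples and -0.74, -0.38 and -0.98 in ventral lateral samples (log2 fold change 1.22, adjusted p = 0.0057 in limma), and was the 1 call among 5 measured genes of its system. The other probe set of Plat, 1458553_at, gave 0.36 and did not pass (adjusted p = 0.521 in limma). Spock1, a secreted proteoglycan of the testican family, was lower on 1419673_at (-1.01, adjusted p = 0.00996), 1 of 8 other inhibitors and regulators. Its other probe set, 1419672_at, gave -0.77 and did not pass (adjusted p = 0.27 in limma). The membrane-anchored Mmp inhibitor Reck did not pass (0.30, adjusted p = 0.482). Bmp1, an astacin protease that trims the other end of procollagen from Adamts3, gave 0.58 (adjusted p = 0.0216) but missed the threshold without FP1 (0.074), FP3 (0.0755), VL1 (0.0821), VL2 (0.0642) or VL3 (0.0553). Its other probe sets gave 0.26 and 0.11 (adjusted p of 0.321 and 0.858), and the mean of all 3 gave 0.32 (adjusted p = 0.149 in limma), not past the threshold. Of 10 microfibril genes Ltbp1, which stores latent TGF-beta, was higher on 1 of 3 probe sets (0.83, adjusted p = 0.00311), while the mean of the 3 gave 0.38 and missed the threshold (adjusted p = 0.0537 in limma). The tetraspanin and iRhom partners of Adam10 and Adam17 had 0 calls among 8 genes (13 probe sets).

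**Figure D4:**
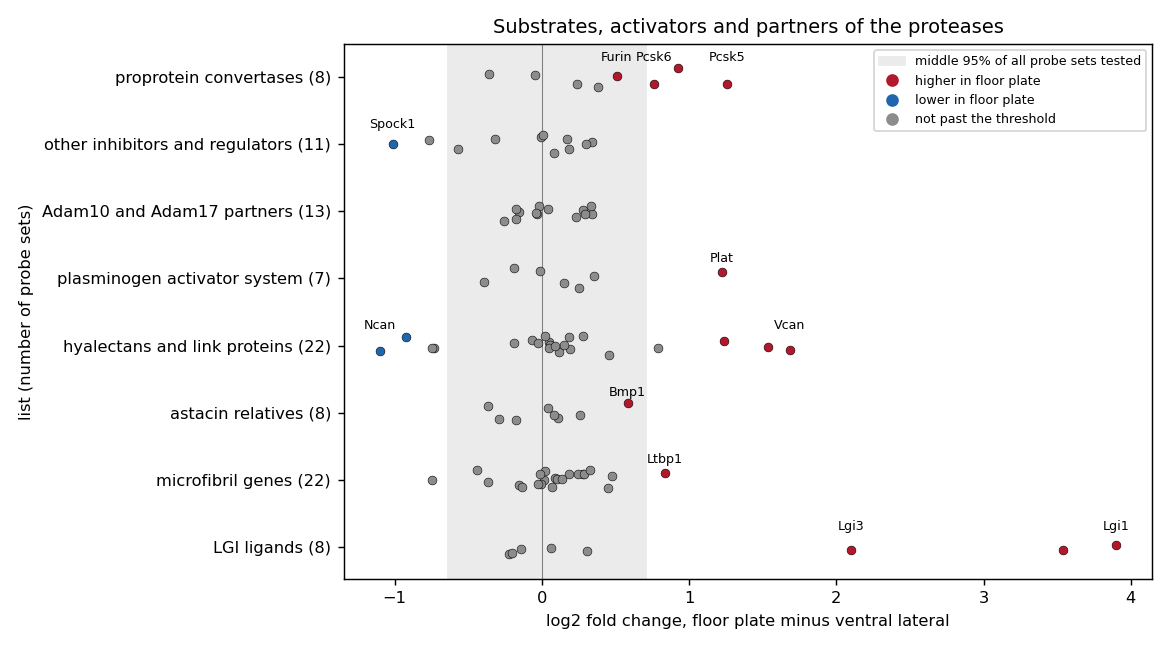
Log2 fold change (floor plate minus ventral lateral) of each probe set in 8 lists of substrates, activators and partners; points are probe sets and the grey band holds the middle 95% of all probe sets tested. Lgi1 reaches 3.90, and the called probe sets of Vcan and Ncan lie on opposite sides of 0.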

How the data were processed

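The authors deposited one table of log2 values from 6 arrays. Per the submitters' processing notes RMA was used, version not given in the sources used here, and this table holds centred values: the median over the 6 arrays was within 1e-05 of 0 for 100% of 45101 probe sets. Log base, centring step and direction are not stated; the base and direction were assumed as given above.

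The 64 control probe sets were left out. Names came from GEO's platform annotation, and all 124 member probe sets matched RefSeq genes (GRCm38.p6) with 0 names changed. Every probe set was fitted on its own with lmFit and eBayes of limma 3.58.1 (R 4.3.3), floor plate minus ventral lateral, adjusted over 45037, because choosing a gene's most variable probe set favours those that differ. A gene was counted as higher with at least 1 probe set higher and none lower. In simulated data for this comparison over 45037 probe sets, the fit recovered 8% of changes of 0.5 and 92% of changes of 1 on the log2 scale, and called 9 unchanged probe sets.

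Members and lists were chosen with earlier results of these data known. Named were all members with a call, all Timps, members at a log2 of 1 or more, and listed partners with a call; others were chosen after their values were seen. Values in every sample were planned for the 6 Adamts genes with the widest difference, 4 Adams, 4 Mmps and the Timps; those of Adamts4, Adamts20, Mmp2 and partners were added. Alternatives were probe set choice, normalization, eBayes, weights, block, thresholds and leaving out each sample. The number of arrays limits the precision. Lists and plots were made in Python 3.11.15 (pandas 2.3.3, matplotlib 3.10.9).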

Additional observations from a re-analysis of the deposited data

How the results depend on the processing

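The count of higher members stayed within 1.5 times of 11 in every setting run; without 1 sample it was 8 to 11, and 7 to 10 for Adamts and Adamtsl. The lower counts were small and moved. Lower members numbered 0 at an adjusted p under 0.01, 6 at under 0.1, 0 with a 2-fold minimum and 0 to 2 without 1 sample. Lower Adamts and Adamtsl numbered 2 with the largest-variance probe set per gene, 2 with the mean of probe sets, 2 with probe sets of 1 gene symbol, 2 after quantile normalization and 2 with array weights. They numbered 0 at under 0.01, 3 at under 0.1, 0 with a 2-fold minimum and 0 to 1 without 1 sample. Lower Adams numbered 1 with the largest-variance probe set, 1 with the replicate block, 0 at under 0.01, 0 with a 2-fold minimum and 0 to 1 without 1 sample. Higher Mmps numbered 0 at under 0.01, 0 with a 2-fold minimum and 0 to 1 without 1 sample. At under 0.1 there were 2 higher Timps and 1 lower. With probe sets averaged per gene, the log2 fold change was smaller and still past the threshold for Adamts5 (2.90), Adamts9 (1.72), Adamts12 (1.16), Adamts3 (0.94), Adamts16 (0.92), Timp4 (0.66), Plat (0.79), Lgi3 (0.76) and Pcsk5 (0.49). The 2 settings per gene count genes and not probe sets; the causes of the other changes were not tested.

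Of the values for single probe sets in other settings, 736 kept their direction and side of the threshold, 93 lost a call, 12 gained one and 5 changed sign, all of probe sets without a call. These were Timp2 1420924_at (0.22 on the mean of its probe sets and -0.29 to 0.045 without 1 sample), Adamts16 1441841_at (-0.085 without FP2, -0.082 without VL2, up to 0.23 without VL3) and Timp1 (-0.037 to 0.25 without 1 sample). The cause was not tested.

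The labels do not say whether samples with the same replicate number belong together. Deviations of same-numbered samples correlated at 0.0096, 0.125 and 0.114, and 4 of 6 samples correlated best with their own number. These values do not settle whether the samples were paired. With the replicate block 1062 probe sets were higher and 842 lower, against 1218 and 903 without it. Adamts1 (adjusted p = 0.0884), Adam19 (0.0643), Furin (0.0595) and Ncan 1444020_at (0.0662) then missed the threshold in limma, and Adamts5 1456969_at passed (0.0143). A filter on dim probe sets could not be run on centred values.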
